A study of Homo sapiens with 9 samples.

Results

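The genes examined encode the proteins of the mitochondrial ribosome. They were chosen as the protein-coding genes of both deposited comparison tables whose symbol starts with MRPL or MRPS followed by a digit, with DAP3 added, which gave 79 genes of the 58735 in the count table. Of these, 49 are named MRPL and 29 MRPS. RNA was sequenced from THP-1 cells, a human monocytic acute myeloid leukaemia line that carries the MLL-AF9 fusion, in 3 groups of 3 libraries. Cells received lentivirus made in 293T cells that carried shRNA-143 against NFATC2, shRNA-146 against NFATC2, or a non-targeting control shRNA, called SHX2 in the titles. All groups share the line, the transduction, puromycin selection from 24 hours after spinoculation, harvest at 48 hours, and polyA RNA. A single cell line was used.

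Mitochondria keep a ribosome of their own, which descends from that of bacteria and translates the messenger RNAs of mitochondrial DNA into core subunits of the respiratory chain and ATP synthase. Its protein parts are encoded in the nucleus, made by cytosolic ribosomes and imported, and they join RNAs transcribed from mitochondrial DNA. Part of the proteins have bacterial counterparts and part are found in mitochondria alone. In acute myeloid leukaemia cells, dependence on mitochondrial translation is a known vulnerability. By their known place, 51 of the genes belong to the large subunit, among them MRPS30 and MRPS18A in spite of their symbols, and 27 to the small subunit. MRPS36 was set apart, since its product is known as a component of the 2-oxoglutarate dehydrogenase complex. The genes lie on 21 chromosomes and are short, with a median length over exons of 2539 bases, against 4550 bases for the median tested gene.

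Library totals ran from 40047459 to 44669709 counts. Levels are given in CPM, the count of a gene relative to the scaled size of its library, differences are log2 fold changes ± SE with 3 libraries per group, and a gene is called when its adjusted p from edgeR's quasi-likelihood test is under 0.05. NFATC2 itself, the transcription factor that the shRNAs target, stood at 1.49, 7.40 and 6.95 CPM with shRNA-143, 2.59, 6.71 and 9.43 CPM with shRNA-146, and 12.7, 27.6 and 27.4 CPM in control, with no overlap between either shRNA and control. Libraries with the same replicate number deviated together, so each test was run both without that number and with it as a block. One library stands apart: shRNA-146 replicate 1 had the fewest genes with a count, 18485, and its log2 ratios to control replicate 1 were lower at higher GC content across all genes (Spearman rho = -0.55), a description of genes that share the same 2 libraries. Over the 79 genes that rho was -0.57 in this library and lay between -0.21 and 0.10 in the other pairs of the same number. The main counts and medians for the mean of both shRNAs are given with and without this library. Of 11 monocytic leukaemia markers, 10 averaged over 1 CPM in each group, and their sum was 1093 to 1203 CPM with shRNA-143, 936.5 to 1239 CPM with shRNA-146 and 1062 to 1125 CPM in control. With the block 1 of the 11 was called lower with either shRNA, MPO (myeloperoxidase). Of all tested genes, 1.57% were called lower with shRNA-143 and 1.96% with shRNA-146. MPO averaged 41.6 CPM with shRNA-143, 35.7 CPM with shRNA-146 and 62.1 CPM in control. CSF1R averaged 98.4 CPM and ITGAM 18.3 CPM with shRNA-146, against 65 and 11.8 CPM in control, and neither passed (adjusted p = 0.0503 and 0.105, edgeR's quasi-likelihood test). For the mean of both shRNAs without shRNA-146 replicate 1, CSF1R was called higher at 0.42 (adjusted p = 0.0149, edgeR's quasi-likelihood test with the block). ITGAM had 0.37 and did not pass (adjusted p = 0.063). In that fit 10.2% of all genes were called higher. The part of these markers in the results was not tested. The summed markers of T and B cells, epithelial or 293T-like cells, erythroid cells and fibroblasts stayed at or under 4.87 CPM in every library, and of these KRT8 was called lower with shRNA-146, at 2.39 CPM, against 4.33 CPM in control.

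All 79 genes were listed in both deposited tables and passed the filter on low counts, so the counts below leave out no member. The level of the whole set was lower with each shRNA than in the control library of the same number. Summed over the genes, it was 8415, 5578 and 6232 CPM in shRNA-143 replicates 1, 2 and 3, 8029, 5734 and 5550 CPM in shRNA-146 replicates 1, 2 and 3, and 9397, 6703 and 8954 CPM in control replicates 1, 2 and 3. Within a number the sum was lower than control in all 6 pairs, but the groups overlapped, because replicate 1 was the highest library of each group. As a share of all counts the genes held 0.613% to 0.756% with shRNA-143, 0.626% to 0.724% with shRNA-146 and 0.694% to 0.843% in control. These are bulk libraries, in which fewer cells of a type and less RNA per cell cannot be told apart.

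Most of the genes shared this direction. With shRNA-143, 62, 71 and 75 of 79 genes were below the control library of the same number in replicates 1, 2 and 3, and the median log2 ratios were -0.17, -0.24 and -0.51. With shRNA-146, 53, 71 and 75 of 79 genes were below, and the median log2 ratios were -0.29, -0.21 and -0.69. The medians of all tested genes lay between -0.01 and 0.02 in these pairs. Replicate 3 thus showed the largest difference with both shRNAs, and shRNA-146 replicate 1 the widest spread between genes. Both shRNAs share the control libraries, so the 2 sets of pairs are not independent. Within all 3 numbers, 59 of the 79 genes (74.7%) were below control with shRNA-143, against 26.9% of the 14975 tested genes. With shRNA-146 it was 47 of the 79 (59.5%), against 19.8% of tested genes.

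**Figure D1:**
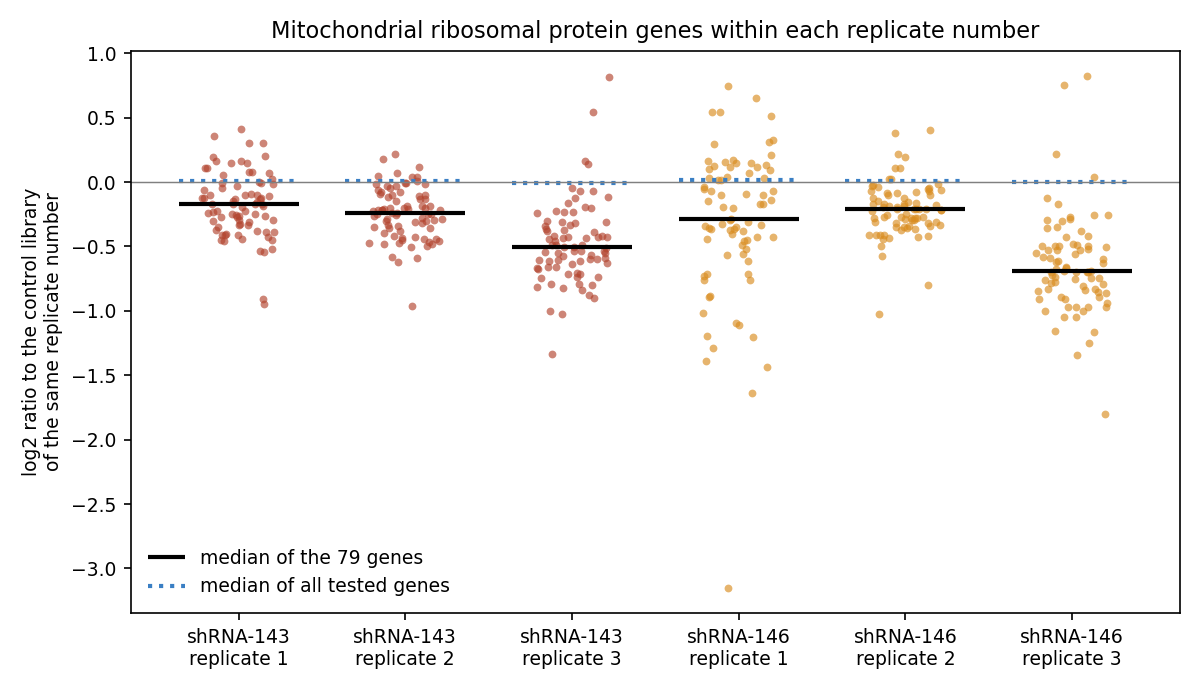
Log2 ratio of each of the 79 genes (points) to the control library with the same replicate number, for shRNA-143 and shRNA-146 replicates 1 to 3; black bars are medians of the 79 genes and dotted blue bars medians of all tested genes. The black bars lie between -0.17 and -0.69, the dotted bars near 0, and the point at the bottom of shRNA-146 replicate 1 is MRPL12.

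Without the block no member was called in any comparison. Against control, 0 of 79 genes passed with shRNA-143, where 0.0401% of all tested genes were called lower, 0 passed with shRNA-146, where 0.00668% were, and 0 passed for the mean of both shRNAs, where 0.0134% were. DESeq2 and limma-voom on the same design also called 0 members. Neither was run with the block, so the calls with the block come from edgeR alone. At an unadjusted p under 0.05 in edgeR's quasi-likelihood test, 19 members were lower and 0 higher for the mean of both shRNAs, where 4.95% of all genes were lower. At the same level 6 were lower with shRNA-143, against 3.62% of all genes, and 15 with shRNA-146, against 4.53%. The median log2 fold change of the members in this fit was -0.29 with shRNA-143, -0.36 with shRNA-146 and -0.38 for the mean of both.

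With the block, 21 of 79 genes (26.6%) were called lower for the mean of both shRNAs and 0 higher, while 2.75% of all tested genes were called lower and 2.98% higher. The median log2 fold change was -0.39 over the members and 0.01 over all genes, and 73 members were below 0. Without shRNA-146 replicate 1, 46 members were called lower (58.2%, against 9.87% of all genes), and without all libraries numbered 1, 44 were (55.7%, against 9.29%). Without all libraries numbered 2 it was 1 member (1.27%, against 0.386% of all genes), and without all numbered 3 it was 0 (against 0.227%). Leaving out shRNA-143 replicates 1, 2 or 3 left 12, 1 and 2 calls, where 1.95%, 0.588% and 0.588% of all genes were lower. Leaving out control replicates 1, 2 or 3 left 1, 0 and 0 calls, where 0.475%, 0.0391% and 0.0456% of all genes were lower. The median of the members stayed between -0.43 and -0.26 in these fits. With library size alone as the scaling, 8 members were called (10.1%), where 1.3% of all genes were lower and 4.43% higher, and the median was -0.27 for the members and 0.12 for all genes. The call for the mean of both was kept in 7 of the 9 fits that leave out 1 library for MRPL50, in 5 for MRPL13 and in 1 to 4 for the other 19 genes. How many single genes pass thus depends on the block and on single libraries. The lower median holds in each of these fits.

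**Figure D2:**
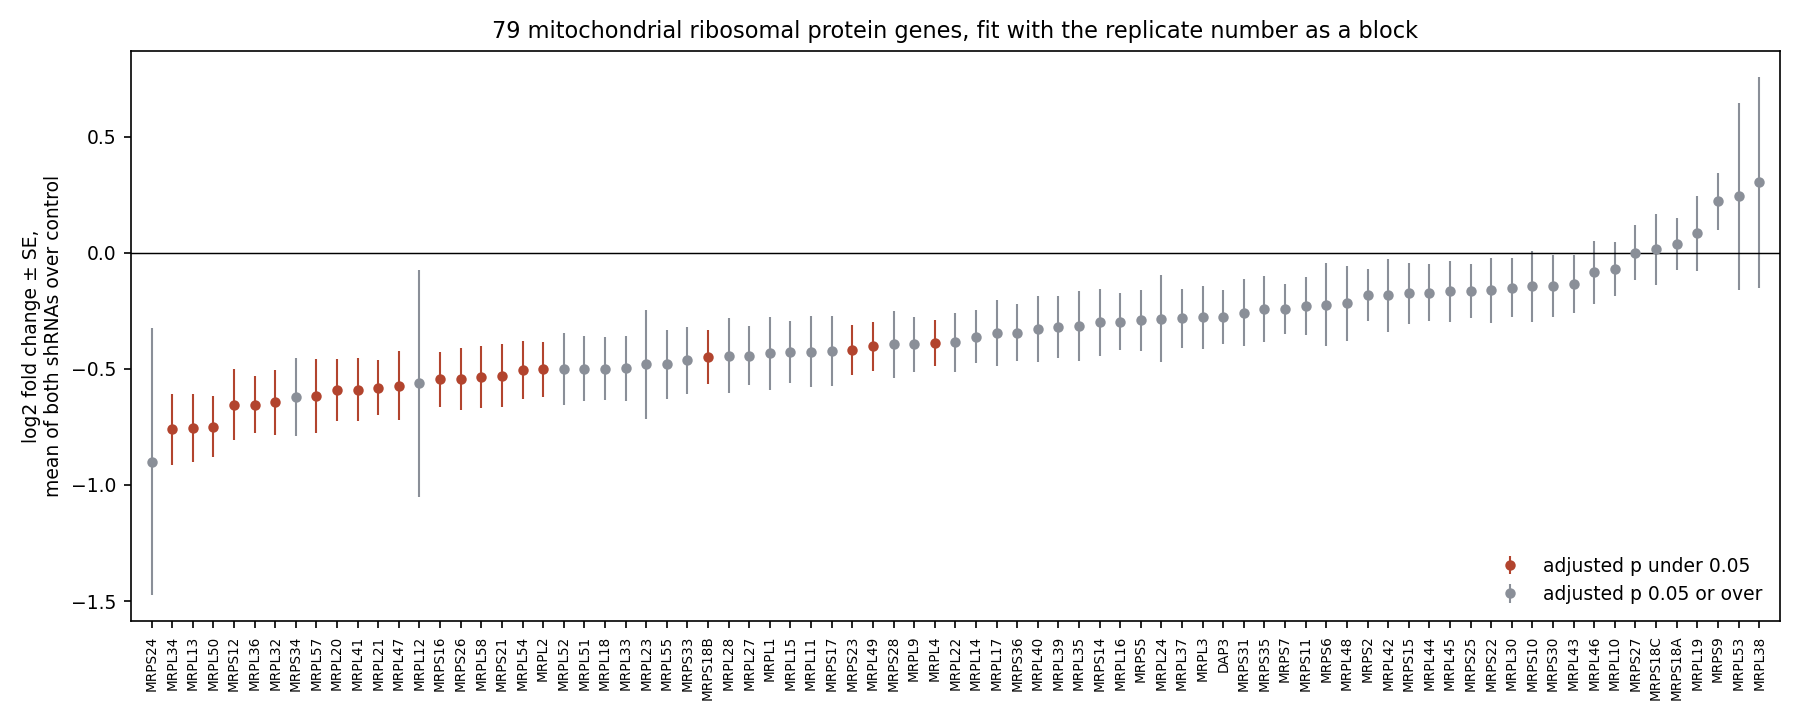
Log2 fold change ± SE of the 79 genes for both shRNAs averaged against control, in the fit with the replicate block, ordered by size; the 21 red genes had an adjusted p under 0.05. In total 73 genes lie below 0, and the widest error bars belong to MRPS24, MRPL12, MRPL53 and MRPL38.

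Among the called genes of the large subunit, MRPL34 (ENSG00000130312, chr19:17292609-17306843, plus strand, hg38), a short protein with a bacterial counterpart, had 85.2, 50.4 and 60.3 CPM with shRNA-143, 42.6, 45.6 and 55.4 CPM with shRNA-146 and 116.3, 68.0 and 104.6 CPM in control. All shRNA-146 libraries were below all control libraries, and shRNA-143 replicate 1 lay within the control range. With the block its log2 fold change was -0.76 ± 0.15 for the mean of both (adjusted p = 0.0222, edgeR's quasi-likelihood test) and -0.96 ± 0.18 with shRNA-146 (adjusted p = 0.0195). Both calls were kept without shRNA-146 replicate 1, both were lost without any 1 of the control replicates, and that for the mean also without shRNA-143 replicate 2 or 3 (highest adjusted p = 0.174 for the mean). ABHD8 on the opposite strand overlaps 13.2% of its exon bases. MRPL36 (ENSG00000171421, chr5:1798386-1801366, minus strand), another small protein shared with bacteria, had 37.0, 22.7 and 24.1 CPM with shRNA-143, 29.6, 22.3 and 21.6 CPM with shRNA-146 and 50.5, 30.4 and 42.8 CPM in control. Its shRNA-146 libraries did not overlap control, shRNA-143 replicate 1 did, and its log2 fold change was -0.65 ± 0.12 for the mean of both (adjusted p = 0.0168), lost without shRNA-143 replicate 2 or 3 or any 1 of the control replicates (up to adjusted p = 0.15). MRPL21 (ENSG00000197345, chr11:68891276-68903835, minus strand), which also has a bacterial counterpart, had 81.0, 56.4 and 62.5 CPM with shRNA-143, 87.8, 57.8 and 60.2 CPM with shRNA-146 and 111.4, 78.4 and 112.1 CPM in control. It overlapped control in replicate 1 of both shRNAs, and was called at -0.60 ± 0.14 with shRNA-143 (adjusted p = 0.0452) and -0.56 ± 0.14 with shRNA-146 (adjusted p = 0.0484). These calls were kept in 2 and in 1 of the 9 fits that leave out a library.

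The other large subunit genes called for the mean of both shRNAs lay between -0.39 and -0.76. MRPL32, whose precursor is known to be processed by the m-AAA protease before it joins the ribosome, was at -0.64. MRPL58, a peptidyl-tRNA hydrolase built into the ribosome, was at -0.53. MRPL2 and MRPL4, core proteins shared with bacteria, were at -0.50 and -0.39. MRPL20 and MRPL47, which also have bacterial counterparts, the mitochondrion-specific MRPL41, MRPL49, MRPL54 and MRPL57, and MRPL13 and MRPL50 complete the 15 called genes of the 51 in this subunit, whose median was -0.40. Of all tested genes, 2.75% were called lower in this fit. MRPL13 and MRPL50 are described with the comparison of the shRNAs.

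In the small subunit 6 of 27 genes were called for the mean of both shRNAs, with a median of -0.28 over the subunit. MRPS12 (ENSG00000128626, chr19:38930548-38933162, plus strand), whose bacterial counterpart is part of the decoding centre and the site of streptomycin resistance, had 127.1, 86.6 and 93.4 CPM with shRNA-143, 71.3, 95.0 and 90.7 CPM with shRNA-146 and 165.0, 122.8 and 156.9 CPM in control. All shRNA-146 libraries were below control and shRNA-143 replicate 1 overlapped it. Its log2 fold change was -0.65 ± 0.15 for the mean of both (adjusted p = 0.0344, edgeR's quasi-likelihood test with the block), a call kept without shRNA-146 replicate 1 and lost without shRNA-143 replicate 2 or 3 or any 1 of the control replicates (up to adjusted p = 0.229). SARS2 on the opposite strand overlaps 16.3% of its exon bases. MRPS16, MRPS21 and MRPS18B, which have bacterial counterparts, were called at -0.54, -0.53 and -0.45, and the mitochondrion-specific MRPS26 and MRPS23 at -0.54 and -0.42. By ancestry, 13 of 48 genes with a bacterial homologue and 8 of 30 mitochondrion-specific genes were called, with medians of -0.41 and -0.28. Without shRNA-146 replicate 1 it was 30 of 48 and 16 of 30, with medians of -0.40 and -0.35. The difference between these classes was not tested. When shRNA-146 replicate 1 was left out, 32 of the 51 large subunit genes and 14 of the 27 small subunit genes were called lower. Their medians were then -0.41 and -0.36. Of all tested genes, 9.87% were called lower in that fit, against 2.75% with all libraries.

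**Figure D3:**
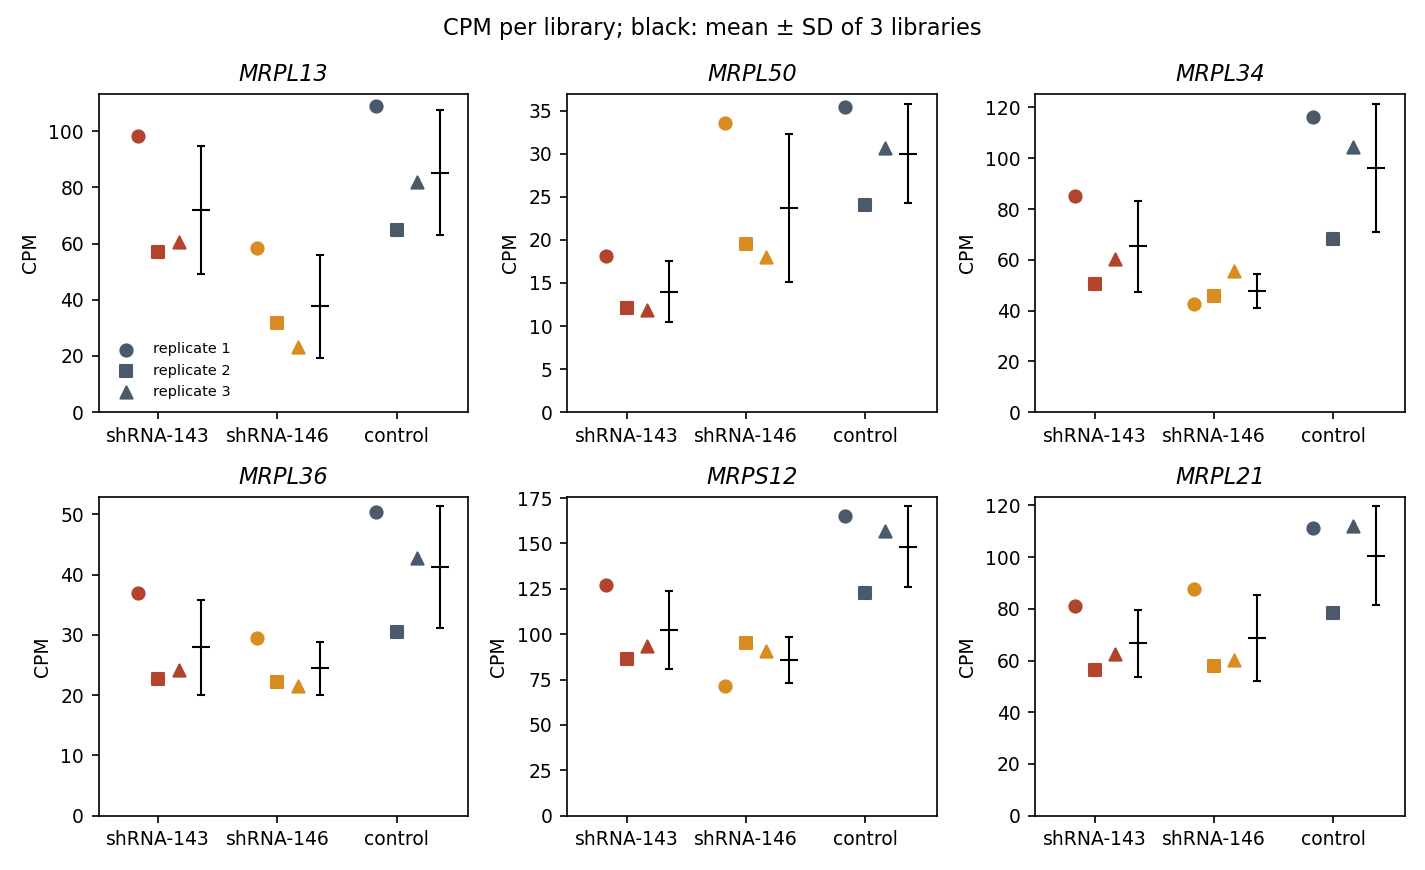
CPM per library of MRPL13, MRPL50, MRPL34, MRPL36, MRPS12 and MRPL21 with shRNA-143, shRNA-146 and control; markers give the replicate number and black bars the mean ± SD of 3 libraries. Replicate 1 is the highest or nearly the highest library of most groups, and the lowest MRPL34 and MRPS12 values are those of shRNA-146 replicate 1.

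The members nearest the threshold were MRPL57 (adjusted p = 0.0482) and MRPL4 (adjusted p = 0.0478) inside it, and MRPL18 (adjusted p = 0.0551) and MRPS34 (adjusted p = 0.0554) outside it, all by edgeR's quasi-likelihood test with the block. Of the members described for their role, DAP3, a GTP-binding protein of the small subunit first known from cell death, had -0.28 ± 0.12, and MRPL11, at the base of the stalk that receives translation factors, had -0.43 ± 0.15. MRPS30 had -0.14 ± 0.13 and MRPS36 had -0.34 ± 0.12. None of these passed, with adjusted p from 0.119 to 0.534. Of the MRPS18 paralogues, MRPS18B was called at -0.45 ± 0.12, while MRPS18A had 0.04 ± 0.11 and MRPS18C 0.01 ± 0.15.

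MRPL12, the stalk protein that is also known to bind mitochondrial RNA polymerase, had 58.3, 31.6 and 40.9 CPM with shRNA-143, 8.33, 32.4 and 69.1 CPM with shRNA-146 and 77.8, 36.5 and 59.5 CPM in control. The shRNA-146 libraries ran from 10.7% of control in replicate 1 to 116.1% in replicate 3, so the groups overlapped widely. Its log2 fold change of -0.56 ± 0.49 for the mean of both did not pass (adjusted p = 0.503, edgeR's quasi-likelihood test with the block). It was -0.18 without shRNA-146 replicate 1 (adjusted p = 0.299), and ran from -0.96 to -0.09 over the fits that leave out libraries. With no filter on low counts the blocked fit called it, at -0.57 (adjusted p = 0.00329). In MRPL12, 68.2% of exon bases overlap the gene AC139530.2 on the same strand, the largest overlap among the members, and its count is uncertain for that reason.

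Above 0 for the mean of both shRNAs stood MRPL38, MRPL53, MRPS9, MRPL19, MRPS18A and MRPS18C, none of them called. MRPS9, a small subunit protein with a bacterial counterpart, had 31.1, 28.7 and 32.8 CPM with shRNA-143, 36.01, 31.9 and 30.04 CPM with shRNA-146 and 25.1, 27.4 and 29.2 CPM in control. Its shRNA-146 libraries were all above control and shRNA-143 replicate 2 was within the control range, with 0.22 ± 0.12 for the mean of both (adjusted p = 0.281, edgeR's quasi-likelihood test with the block). MRPL38 and MRPL53 were at 0.18 to 1.78 CPM and 0.23 to 1.17 CPM over all libraries, and 41.1% and 45.2% of their exon bases overlap other genes.

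The levels of the genes, set per kilobase of exon, spanned a wide range. In control, MRPL18, a large subunit protein that binds the RNA of its subunit in bacteria, averaged 273.1 ± 63.5 CPM per kilobase (SD, n = 3), MRPL37 270.8 ± 50.6, MRPS34 175.9 ± 41.3 and MRPL51 145.0 ± 51.5. MRPL18 and MRPL37 differed by less than their SD, and so did MRPS34 and MRPL51. At the low end stood MRPL53 with 0.386 ± 0.0307, MRPL38 with 0.297 ± 0.0873 and MRPS24 with 0.135 ± 0.0636 CPM per kilobase. MRPS24 had 1 to 18 counts per library and overlaps the readthrough gene URGCP-MRPS24 on the same strand.

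Each shRNA was then set against control on its own, with the block. With shRNA-143, 4 members were called lower, MRPL50, MRPL20, MRPL18 and MRPL21, and 0 higher, while 1.57% of all genes were called lower and 1.6% higher. With shRNA-146, 12 members were called lower and 0 higher, while 1.96% of all genes were called lower and 2.46% higher. The members' median was -0.31 with shRNA-143 and -0.39 with shRNA-146. Without shRNA-146 replicate 1 these counts were 28 and 26, with backgrounds of 6.57% and 4.91%, and without control replicate 2 they were 1 and 0, with backgrounds of 0.287% and 0.0847%. Of the shRNA-143 calls, that of MRPL20 was kept in 3 and that of MRPL18 in 2 of the 9 fits that leave out a library. Of the shRNA-146 calls, that of MRPL13 was kept in 8 of these fits and that of MRPL34 in 6. Those of MRPL36 and MRPS26 were kept in 4, and those of MRPL32, MRPL57 and MRPS12 in 3. That of MRPS21 was kept in 2, and those of MRPL2, MRPL21, MRPL41 and MRPS16 in 1. By overlap of the libraries, 6 of 79 genes (7.59%) had all shRNA-143 libraries below all control libraries, a share near that of all genes, 8.11%. For shRNA-146 it was 13 of 79 (16.5%), against 7.46% of all genes. Without shRNA-146 replicate 1, both other libraries were below all control libraries in 63 of 79 genes (79.7%), against 23.5% of all genes. Control replicate 1 stayed in that comparison, although replicate 1 had the highest summed level in each group. The share is thus not balanced by replicate number, and it needs fewer libraries below control. In the authors' deposited table for shRNA-143, MRPL50 was the single member with an adjusted p under 0.05 (log2 fold change -1.09, adjusted p = 0.0261), against 0.374% of listed genes lower. The authors' deposited table for shRNA-146 had 0 of 79, against 0.101% lower.

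MRPL13, MRPS24 and MRPL50 had the largest log2 fold changes of shRNA-146 against shRNA-143. That of MRPS24, a small subunit gene with at most 18 counts in a library, was 0.92 ± 0.70 (adjusted p = 0.717, edgeR's quasi-likelihood test with the block). MRPL50 (ENSG00000136897, chr9:101387633-101398614, minus strand), a mitochondrion-specific protein of the large subunit, had 18.1, 12.1 and 11.8 CPM with shRNA-143, 33.6, 19.5 and 18.0 CPM with shRNA-146 and 35.4, 24.0 and 30.6 CPM in control. All shRNA-143 libraries were below control, while shRNA-146 overlapped it. With shRNA-143 it was 2.17-fold lower than control (-1.12 ± 0.16, adjusted p = 0.00584, edgeR's quasi-likelihood test with the block), a call kept in 8 of 9 fits that leave out 1 library and lost without shRNA-143 replicate 3 (adjusted p = 0.0571). With shRNA-146 it had -0.38 ± 0.16 (adjusted p = 0.172). The direct comparison of shRNA-146 against shRNA-143 gave 0.74 ± 0.16 and did not pass (adjusted p = 0.0513).

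MRPL13 (ENSG00000172172, chromosome 8), a large subunit protein with a bacterial counterpart, had 98.1, 56.9 and 60.5 CPM with shRNA-143, 58.3, 31.6 and 23.1 CPM with shRNA-146 and 108.9, 64.7 and 81.9 CPM in control. All shRNA-146 libraries were below all control libraries, and shRNA-143 overlapped control. With shRNA-146 it was 2.37-fold lower than control (-1.24 ± 0.18, adjusted p = 0.00613, edgeR's quasi-likelihood test with the block), a call kept in 8 of 9 such fits and lost without control replicate 2 (adjusted p = 0.0579). With shRNA-143 it had -0.27 ± 0.17 (adjusted p = 0.407). In shRNA-146 against shRNA-143, 1 member was called lower, MRPL13 at -0.98 ± 0.17 (adjusted p = 0.0249), against 0.421% of all genes called lower, and the members' median was -0.08. That call was kept in 4 of the 9 fits that leave out a library and lost without any 1 of the shRNA-143 replicates, shRNA-146 replicate 2 or control replicate 2 (up to adjusted p = 0.153). Without the block 0 members were called there, 1 was higher and 2 were lower at an unadjusted p under 0.05, and 0.0467% of all genes were called in either direction.

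Gene length moved with these values. The tested genes were split by length into 5 bins of nearly equal size. The 37 members of the shortest bin, up to 2312 bases, had a median of -0.43 with the block for the mean of both shRNAs, and all genes of that bin had -0.22. In bin 2, up to 3775 bases, 23 members had -0.43 and all genes -0.11. In bin 3, up to 5404 bases, 12 members had -0.25 and all genes 0.01. In bin 4 the 6 members had -0.19 and all genes 0.08, and in bin 5 the single member had -0.18 and all genes 0.19. With offsets that take out a smooth trend on gene length in each library, 7 members were called (8.86%, against 1.98% of all genes) and the median was -0.24. With shRNA-146 replicate 1 left out, the members' medians from bin 1 to bin 5 were -0.42, -0.38, -0.35, -0.22 and -0.30, and those of all genes -0.20, -0.10, 0.00070, 0.08 and 0.16. Among the 53 members with at most 10% of exon bases overlapped by another gene, 51 were below 0, 14 were called and the median was -0.36. These values are from the fit with the block, all libraries and no length correction, where 2.75% of all genes were called lower. They were not computed without shRNA-146 replicate 1.

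The promoters of the genes were read from RefSeq (GRCh38.p14), which held 70 of the 79, over the 250 bases before the annotated start. They are shown for 4 called genes: MRPL20 and MRPL58, which carry a motif common among the members, and MRPL36 and MRPL50, whose windows hold the core that NFAT proteins bind. Capitals mark every match on either strand to CCGGAAG (ETS factors such as GABPA), the palindromic NRF1 motif or a looser form of it with any base at its 2 central positions, AAGATGGCG (YY1), CACGTG (E-box), TGACGTCA (CRE) or GGAAAA (NFAT core). The windows are chr1:1407294-1407543 (minus strand) for MRPL20, chr17:75012420-75012669 (plus strand) for MRPL58, chr5:1799838-1800087 (minus strand) for MRPL36 and chr9:101398619-101398868 (minus strand) for MRPL50.
MRPL20: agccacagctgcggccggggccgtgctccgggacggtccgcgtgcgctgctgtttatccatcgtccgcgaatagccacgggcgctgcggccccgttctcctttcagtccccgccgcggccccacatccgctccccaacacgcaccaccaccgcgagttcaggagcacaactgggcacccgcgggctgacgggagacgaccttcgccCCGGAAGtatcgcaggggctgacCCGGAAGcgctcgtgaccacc
MRPL58: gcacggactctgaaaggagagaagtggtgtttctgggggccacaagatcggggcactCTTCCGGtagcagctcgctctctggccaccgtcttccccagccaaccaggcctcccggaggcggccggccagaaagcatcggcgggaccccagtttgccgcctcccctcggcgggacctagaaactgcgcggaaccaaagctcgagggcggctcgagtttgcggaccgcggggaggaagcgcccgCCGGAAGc
MRPL36: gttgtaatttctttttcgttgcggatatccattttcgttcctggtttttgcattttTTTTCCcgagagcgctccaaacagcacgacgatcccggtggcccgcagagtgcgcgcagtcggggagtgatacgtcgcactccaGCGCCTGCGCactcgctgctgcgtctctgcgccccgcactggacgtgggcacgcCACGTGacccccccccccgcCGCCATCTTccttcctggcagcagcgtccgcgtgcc
MRPL50: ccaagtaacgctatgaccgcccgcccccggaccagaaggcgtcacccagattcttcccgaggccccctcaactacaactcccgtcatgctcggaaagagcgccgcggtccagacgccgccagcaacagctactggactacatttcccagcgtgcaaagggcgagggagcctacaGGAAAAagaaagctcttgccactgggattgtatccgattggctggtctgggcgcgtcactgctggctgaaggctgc

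MRPL20 holds the ETS motif with its first base 44 and 21 bases before the start, and MRPL58 holds it 193 and 8 bases before. MRPL36 holds the loose NRF1 motif, an E-box and the YY1 motif 110, 56 and 36 bases before the start. That start is the one of RefSeq, and the MRPL36 window lies inside the gene span given above, downstream of where that span begins. A GENCODE transcript start was found in the promoter entry, in the same orientation, for 63 of the 70 members. Over the 70 windows, CCGGAAG occurred in 23 (32.9%), against 8.52% of 35116 RefSeq promoters, in 7 of the 18 members called for the mean of both shRNAs and 16 of the 52 others. AAGATGGCG occurred in 3 (4.29%, against 0.652%), the loose NRF1 form, which takes in the strict one, in 9 (12.9%, against 7.16%), the strict NRF1 motif in 1 (1.43%, against 1.03%), CACGTG in 6 (8.57%, against 6.34%) and TGACGTCA in 0 (against 1.65%). The NFAT core GGAAAA occurred in 13 windows (18.6%, against 21.2% of all promoters), in 2 of the 18 members called for the mean of both shRNAs, MRPL36 and MRPL50, and 11 of the 52 others, among them MRPL18, which was called with shRNA-143. Median GC content was 61% in the members' windows and 58% in all promoters. A match describes the letters only.

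Many of the genes sit head to head with another gene. A protein-coding start on the opposite strand within 1000 bases was found for 29 of 79 members (36.7%), against 17.5% of 12598 tested protein-coding genes. Of 28 partners tested, 0 were called lower and 1 higher, TMEM63B beside MRPL14 (0.80 ± 0.15, adjusted p = 0.0161, edgeR's quasi-likelihood test with the block). Of all tested genes, 2.75% were called lower and 2.98% higher, so few calls can be awaited among the partners. The partners' median was -0.08, and the median of their members was -0.47. MRPL46 and MRPS11 are partners of each other and enter both medians. These medians were -0.08 and -0.44 without shRNA-146 replicate 1, and 3 partners were called lower and 2 higher. In that fit 9.87% of all genes were called lower and 10.2% higher. MRPL13 and MTBP start 2 bases apart, with -0.76 ± 0.15 for MRPL13 and 0.29 ± 0.15 for MTBP. MRPL21 and IGHMBP2 start 7 bases apart, with -0.58 ± 0.12 for MRPL21 and 0.36 ± 0.18 for IGHMBP2. MRPL50 and ZNF189, whose starts are 259 bases apart, had -0.75 ± 0.13 and 0.39 ± 0.14. None of these 3 partners passed the test, and the difference between a member and its partner was not tested.

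The rest of the mitochondrial translation system was read from lists of genes by role, for the mean of both shRNAs with the block. Of 4 mitochondrial ribosome proteins with other names, CHCHD1, a small subunit protein, was called at -0.56 ± 0.13 (adjusted p = 0.0337, edgeR's quasi-likelihood test), and AURKAIP1, GADD45GIP1 and PTCD3 had -0.69, -0.44 and 0.07. Of 28 assembly and RNA modification factors 1 was called lower (3.57%, near the 2.75% of all tested genes), MALSU1, which keeps the large subunit from joining too early, at -0.57 ± 0.12 (adjusted p = 0.0249), and their median was -0.16. Of 19 translation factors and mRNA handling genes 0 were called, with a median of -0.03, and of 22 aminoacyl-tRNA synthetases 0, with a median of -0.05. Both medians turned positive, to 0.08 and 0.06, with library size as the scaling. Without shRNA-146 replicate 1, where 9.87% of all genes were lower, 8 assembly factors (28.6%), 2 translation factors (10.5%) and 4 synthetases (18.2%) were called lower and 1 synthetase higher. Of 11 genes for mitochondrial DNA maintenance and transcription, SSBP1, the single-stranded DNA-binding protein of the mitochondrial replication fork, was called lower at -0.51 ± 0.11 (adjusted p = 0.0302). That is 1 of 11 (9.09%), against 2.75% of all genes. It was also the 1 gene of that list called lower without shRNA-146 replicate 1, a share near the 9.87% of all genes.

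Of 9 factors known to control nuclear genes for mitochondria, 0 were called, the median was 0.11 and 3 were below 0. GABPA, NRF1 and YY1, whose motifs were searched above, had 0.21 ± 0.16, -0.02 ± 0.12 and 0.01 ± 0.11, and MYC, which binds E-boxes, had -0.08 ± 0.10. With library size as the scaling the median was 0.23 and 0 of the 9 were below 0, so the signs of NRF1 and MYC turned. Leaving out shRNA-146 replicate 1, the nuclear receptor ESRRA and the coactivator PPARGC1B were called higher, at 0.51 and 0.46 (adjusted p = 0.00702 and 0.0223, edgeR's quasi-likelihood test with the block), and YY1 had -0.03. These are 2 of the 9 factors, and in that fit 10.2% of all genes were called higher. The RNAs that the ribosome proteins bind, MT-RNR1 and MT-RNR2, had -0.47 ± 0.18 and -0.11 ± 0.15 and did not pass (adjusted p = 0.13 and 0.687, edgeR's quasi-likelihood test with the block). Both are read here from polyA RNA. The 13 protein genes of mitochondrial DNA, which the ribosome translates, had a median of -0.10 with 0 called, made up of 0.05 with shRNA-143 and -0.19 with shRNA-146. All 13 were below 0 in shRNA-146 against shRNA-143, with a median of -0.30 and 0 called. Over all tested genes the median was 0.0039 there, and 0.421% were called lower. The 13 genes share the same libraries, so they are not 13 separate observations. Without shRNA-146 replicate 1 their median for the mean was -0.16, with 11 of 13 below 0 and 0 called. It turned to 0.02 with library size as the scaling and to 0.16 with the length correction, where 1 of 13 was below 0. Cytosolic ribosomal protein genes had a median of -0.39 with 8 of 85 called lower. Nuclear genes of oxidative phosphorylation had -0.33 with 6 of 78 called lower and 1, COX7C, called higher. Of all tested genes, 2.75% were called lower and 2.98% higher. Without shRNA-146 replicate 1 the medians of these lists were -0.39 and -0.29. Called lower were then 29 of 85 (34.1%) and 23 of 79 (29.1%), against 9.87% of all genes. Medians of like size thus stood in these lists, and no difference between them and the mitochondrial ribosome was tested.

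**Figure D4:**
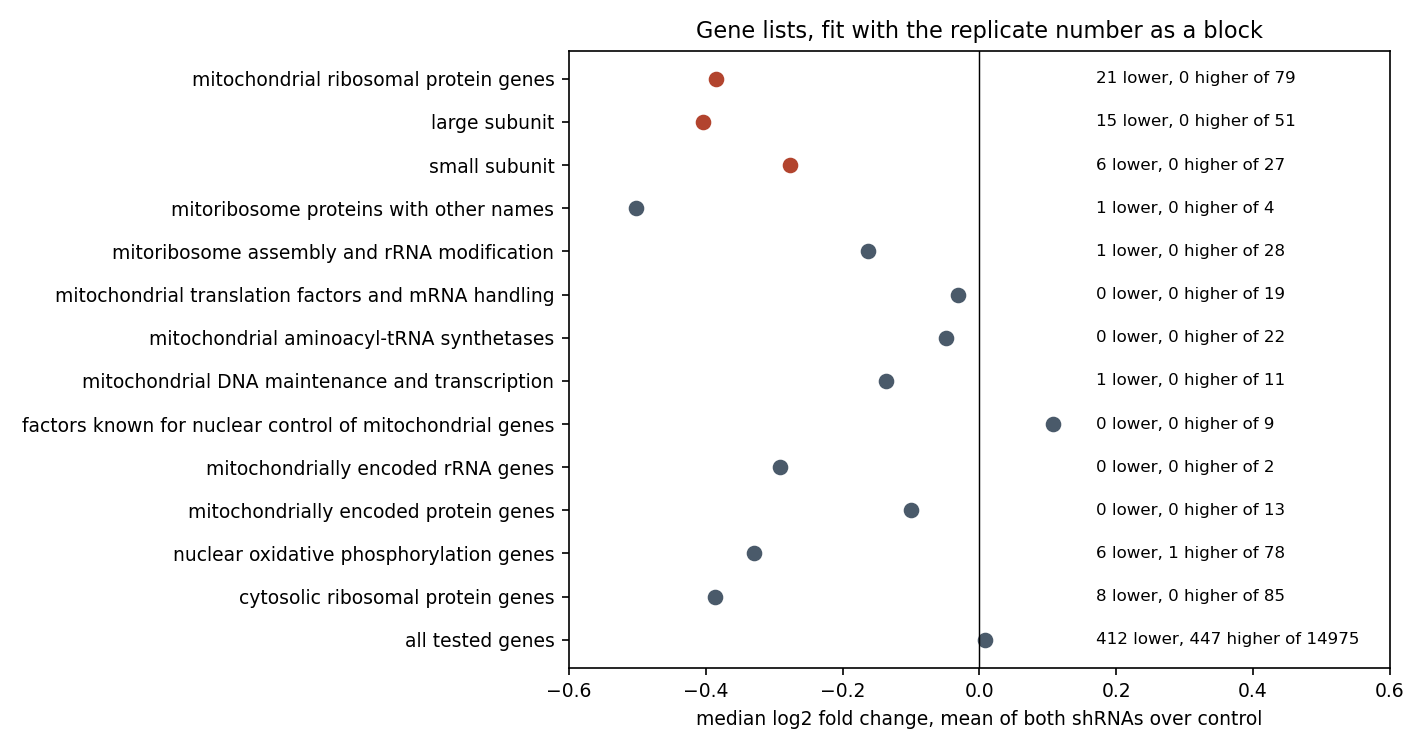
Median log2 fold change of each gene list for the mean of both shRNAs over control, in the fit with the replicate block, with the number of genes called lower and higher at the right. The mitochondrial ribosomal protein genes (red) lie at -0.39, the cytosolic ribosomal protein genes at -0.39 and all tested genes at 0.01; the medians of translation factors, aminoacyl-tRNA synthetases and mitochondrially encoded protein genes turned positive with library size as the scaling, and that of the mitochondrially encoded genes also with the length correction.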

How the data were processed

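The authors deposited raw counts of each gene in 9 libraries and, for each shRNA against control, a table with log2 fold changes and p-values of their own, quoted only where named. Those tables also hold FPKM values and a signal that the authors made by normalizing the counts, per the file headers; neither was used. Per the submitters' processing notes, fastp, STAR 2.5, featureCounts, DESeq2 and the hg38 build were used. Strand use and the treatment of overlapping genes and of the 77 named pseudogenes of 35 members are not given in the sources used here, so those counts are uncertain. Deposited spans and lengths equalled GENCODE 29 for all 79 members.

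Genes were kept by filterByExpr (minimum count of 10), which left 14975, and scaled by TMM. The test was the quasi-likelihood test of edgeR 4.0.16 (robust, R 4.3.3) on 3 group means over 9 libraries, with 6 residual degrees of freedom. Benjamini-Hochberg adjustment ran over every tested gene, separately by comparison. Control was the base for each shRNA and for the mean of both, and shRNA-146 was also set against shRNA-143. Nothing in the labels says that replicates are separate cultures, so a p-value here covers the spread among these libraries alone, which may be technical.

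The titles number the replicates 1 to 3. Deviations from the group means correlated at 0.252 to 0.758 in all 9 pairs that share a number, and 9 of 9 libraries matched their own number best. Pairs of different numbers ranged from -0.678 to 0.535. Replicate 3 of shRNA-143 and of shRNA-146 correlated more with control replicate 2 (0.450 and 0.520) than with control replicate 3 (0.329 and 0.252). The planned design had no block. A fit with the number as a block, which left 4 residual degrees of freedom, is given beside it; the pairing comes from the data.

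Alternatives were library size or median-of-ratios scaling, DESeq2 1.42.0, limma-voom (limma 3.58.1), no filter, a loess length correction (span 0.5) and leaving out libraries. The code was tested on simulated data. Log2 ratios within a number used CPM plus 0.5. The rule for named members took the largest changes, the highest and lowest levels, members with a special role and those called with a single shRNA. Members, lists and rules were chosen with earlier results of these data known.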

Additional observations from a re-analysis of the deposited data

Results flagged for a closer look

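The difference of MRPL13 between the shRNAs passed the direct test of shRNA-146 against shRNA-143 with the replicate block, at a log2 fold change of -0.98 ± 0.17 (adjusted p = 0.0249, edgeR's quasi-likelihood test). MRPL13 was lower with shRNA-146 than with shRNA-143 within all 3 replicate numbers. The call was kept in 4 of 9 fits that leave out 1 library, with adjusted p from 0.00581 to 0.153, and was lost without shRNA-143 replicates 1, 2 or 3, shRNA-146 replicate 2 or control replicate 2. Without the block the difference was -0.93 ± 0.37 (adjusted p = 1, unadjusted p = 0.032, edgeR's quasi-likelihood test).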

How the results depend on the processing

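Without the block, 0 members were called in all 4 comparisons under every scaling, tool, filter and left-out library. With the replicate block, members called numbered 4, 12 and 21 for shRNA-143, shRNA-146 and their mean against control, and 1 for shRNA-146 against shRNA-143. In that order the counts were 4, 4, 8 and 2 with library size scaling, 4, 12, 21 and 1 with median-of-ratios scaling, 14, 26, 35 and 3 with no filter, and 1, 3, 7 and 2 with the length correction; the cause was not tested. All calls against control were lower. Between the shRNAs 1 member was called higher with library size scaling, no filter and the length correction, and the rest lower. Of all genes, 0.982%, 1.04%, 1.3% and 0.341% were lower with library size scaling, 1.57%, 2.08%, 2.74% and 0.454% with median-of-ratios scaling, 2%, 3.14%, 3.64% and 0.711% with no filter, and 1.4%, 1.33%, 1.98% and 0.487% with the length correction. Over fits that leave out libraries the counts ran from 0 to 28, 0 to 36, 0 to 46 and 0 to 2. The members' median ran from -0.51 to -0.20 for shRNA-143 and from -0.25 to 0.11 for shRNA-146 against shRNA-143 in those fits. Blocking changed the members' medians by less than their spread over the replicate numbers.

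NFATC2 was not called without the block, at -1.97 for the mean of both, except by DESeq2 (-1.95). With the block it was called at -2.27, -1.96 and -2.12 for shRNA-143, shRNA-146 and the mean, at -2.19, -1.83 and -2.01 with library size scaling, at -2.26, -1.96 and -2.11 with median-of-ratios scaling, at -2.28, -1.97 and -2.12 with no filter, and at -2.39, -2.10 and -2.25 with the length correction. Leaving out libraries gave -2.52 to -1.65, -2.27 to -1.48 and -2.30 to -1.75.

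Over 82 named values and their alternatives, 2622 in all, 49 changed sign, none of them in a called gene. With the length correction and the block MRPS18C had -0.0069 for the mean. The others came from left-out libraries: MRPL19 ran from -0.0861 to 0.33 with shRNA-143 and from -0.32 to 0.37 with shRNA-146. MRPL23 ran from -0.73 to 0.0293, and MRPL38 from -1.13 to 0.0790, for shRNA-146 against shRNA-143, and MRPL38 from -0.12 to 0.69 for the mean. MRPL53 ran from -0.20 to 0.83 for the mean, -0.38 to 0.68 with shRNA-143, -0.0182 to 0.9995 with shRNA-146, and -0.0846 to 0.78 between the shRNAs. MRPS18A ran from -0.0335 to 0.12 for the mean and -0.0767 to 0.12 with shRNA-146. MRPS18C ran from -0.20 to 0.26, -0.22 to 0.56, and -0.0408 to 0.80 for the mean, shRNA-146 and between the shRNAs. Depth limits MRPS24, MRPL53 and MRPL38, which had at most 85 counts in any library.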
